A study of Mus musculus with 8 samples.

Results

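The insulin-like growth factor (IGF) genes described here were 10 named genes of 53465 in the expression table, listed by name for their place in the IGF pathway. They were the ligands *Igf1* and *Igf2*, the imprinted RNA *H19*, the receptors *Igf1r* and *Igf2r*, the binding protein genes *Igfbp2*, *Igfbp3*, *Igfbp4* and *Igfbp5*, and the docking protein gene *Irs1*. All 10 passed the filter on low counts and were among the 14451 genes tested.

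Poly(A) RNA was sequenced from heart ventricles of mouse embryos at embryonic day 9.5. The KO group held 4 samples of the genotype labelled Nrg-1flox;Tie2-Cre, and the control group held 4 samples labelled WT. Neuregulin 1 is a growth factor made by the endocardium that signals to the cardiomyocytes through ErbB receptors, and Tie2-Cre recombines floxed genes in endothelial and endocardial cells and in much of the blood lineage. Whether the WT embryos carried a floxed allele or Cre, and how many embryos or litters went into a sample, is not given in the sources used here, so p-values measured only the spread between these samples. In whole ventricles, fewer cells of a type and less RNA per cell cannot be told apart.

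IGF1 and IGF2 are secreted growth factors that act through the IGF1 receptor, a tyrosine kinase that passes its signal to IRS docking proteins and on to PI3K and AKT. IGF2 is the main growth factor of the family before birth, the IGF2 receptor takes it up for breakdown in lysosomes, and the binding proteins carry IGFs outside the cell and limit or aid their access to the receptor. *Igf2* and *H19* lie side by side and share enhancers: *Igf2* is expressed from the paternal and *H19* from the maternal copy, while *Igf2r* is expressed mainly from the maternal copy. In the early heart, IGF2 from the epicardium is known to promote growth of the ventricular wall.

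Total counts ranged from 11852372 to 14360323 per sample. *Nrg1* itself had 156, 131, 121 and 173 counts in the WT samples and 61, 59, 71 and 72 in the KO samples, a log2 fold change of -1.07 ± 0.14 (SE, adjusted p = 0.00268, quasi-likelihood test of edgeR, adjusted by Benjamini-Hochberg). Of the genes tested, 1245 (8.62%) were called at a false discovery rate under 0.05, of which 739 (5.11%) were higher and 506 (3.5%) lower in KO. This count ran from 509 to 2523 with a sample left out, and was 616 with a replicate block and 604 with a Y-linked covariate. KO replicate 1 stood apart: hemoglobin transcripts took 6.26% of its counts against 1.93% to 3.89% in the other KO samples and 0.671% to 0.799% in WT. It also had the highest summed levels of the epicardial, hypoxia and proliferation lists. Its epicardial sum of 507 CPM rested largely on *Krt19*, which reached 289 CPM in KO. All 10 erythroid markers were higher in KO. The defining cardiomyocyte markers were abundant in both groups, at a summed 36990.2 to 39138 CPM (read counts scaled to a common library size) in WT and 34842 to 38177 in KO, and 0 of 12 were called, with 2 at an unadjusted p under 0.05, 2 called by DESeq2 and 0 by limma-voom.

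Of the 10 IGF genes, 1 was called. *Igfbp2* rose 1.35-fold in KO, while *H19*, *Igf2* and *Igf2r*, which had the highest levels per length of the 10, did not pass the test. The called share of 10% stood beside 8.62% of all genes tested, so it was near the background. The groups did not overlap for 3 members, with *H19* and *Igfbp2* higher and *Igfbp5* lower in every KO sample, while 19% of all genes tested had groups that did not overlap. The median log2 fold change was 0.10 over the members and -0.0014 over all genes.

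**Figure D1:**
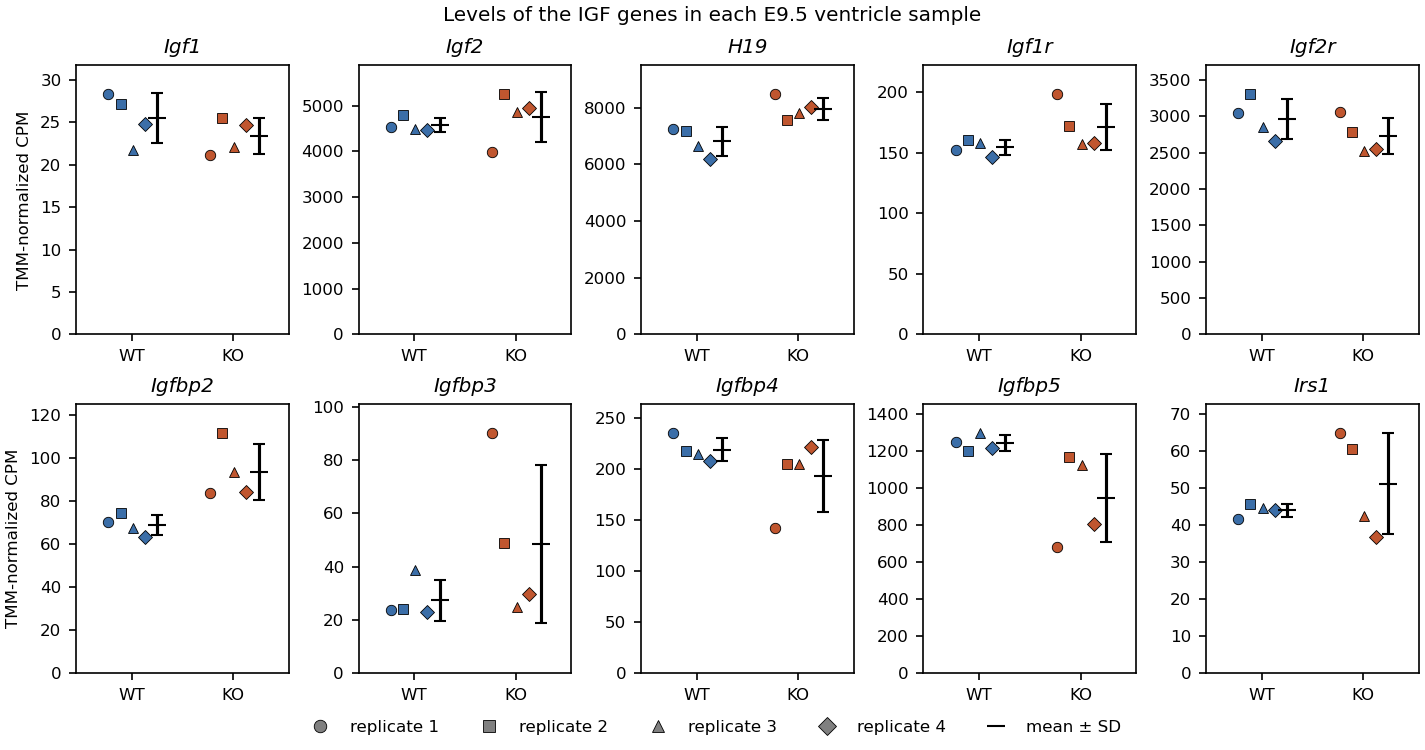
TMM-normalized CPM (vertical axis, linear, from 0) of the 10 IGF genes in each of 4 WT and 4 KO ventricle samples, with symbols for the replicate and bars for the mean ± SD. The 4 KO samples lay above all WT samples for *H19* and *Igfbp2* and below them for *Igfbp5*, and KO replicate 1 was the highest or the lowest KO sample for all 10 genes.

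Levels can be compared between genes only per length, as CPM per kilobase of exon. On this scale the WT order was *H19* at 2771 ± 205 (SD, n = 4), *Igf2* at 799 ± 26.8, *Igf2r* at 319 ± 29.5, *Igfbp5* at 206 ± 7.16, *Igfbp4* at 49.6 ± 2.63, *Igfbp2* at 37.3 ± 2.57, *Igf1r* at 9.20 ± 0.371, *Igfbp3* at 8.77 ± 2.46, *Irs1* at 4.81 ± 0.190 and *Igf1* at 2.58 ± 0.297. Only *Igf1r* and *Igfbp3* overlapped among neighbours in this order, and every other pair of neighbours was separated in all WT samples. Thus the ligand *Igf2* and the receptor that clears its product were far more abundant per length than *Igf1* and the signalling receptor *Igf1r*. In KO the means of *Igfbp2* (50.5) and *Igfbp4* (43.9) changed places, as did those of *Igfbp3* (15.5) and *Igf1r* (10.2).

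*Igf1* (chr10:87858265-87937042, plus strand, GRCm38) encodes the ligand that becomes the main mediator of growth hormone after birth. Its level was 28.3, 27.2, 21.7 and 24.8 CPM in WT replicates 1 to 4 and 21.1, 25.6, 22.2 and 24.7 CPM in KO replicates 1 to 4. The groups overlapped, and the log2 fold change was -0.13 ± 0.10 (95% interval -0.35 to 0.10, adjusted p = 0.483, edgeR). It was -0.073 without WT replicate 1, -0.081 without KO replicate 1 and -0.20 without WT replicate 3.

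*Igf2* (chr7:142650766-142666816, minus strand) encodes the main IGF ligand of the embryo. It had 4544, 4797, 4485 and 4466 CPM in WT and 3978, 5253, 4854 and 4940.4 CPM in KO. KO replicate 1 was below every WT sample and the other KO samples were above every WT sample. The means were 4573 ± 153 in WT and 4756 ± 546 in KO (SD, n = 4 each), and the log2 fold change was 0.057 ± 0.080 (95% interval -0.12 to 0.24, adjusted p = 0.711, edgeR). Without KO replicate 1 it was 0.13 with an adjusted p of 0.0502, and without KO replicate 2 it was 0.015.

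Its RNA starts at several promoters, whose reads the gene count adds together. Its exons also overlap those of *Gm49394* on the same strand over 3596 bases, and of *Igf2os* on the opposite strand over 98 bases. These had 1608 and 10758 counts in all 8 samples, against 494015 for *Igf2*, and how reads of shared bases were split among them was not tested. A microRNA gene, *Mir483*, lies inside *Igf2* and had 0 counts. Poly(A) libraries do not capture mature microRNAs, and why the gene entry had 0 counts was not tested.

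*H19* (chr7:142575529-142578143, minus strand) is a long non-coding RNA 72622 bases from *Igf2*. Its level was 7265, 7178, 6649 and 6179 CPM in WT and 8479, 7566, 7815 and 8016 CPM in KO. Every KO sample was above every WT sample, although the lowest KO and the highest WT sample were close. The means of 6818 ± 505 and 7969 ± 387 CPM (SD, n = 4 each) gave a 1.17-fold higher level in KO, with a log2 fold change of 0.23 ± 0.065 (95% interval 0.080 to 0.37). The adjusted p was 0.0610 by edgeR and missed the threshold, and over 8 other ways of processing the counts it ran from 0.00939 with DESeq2 to 0.128. *H19* passed in DESeq2, without the hemoglobin and mitochondrial genes (0.0404), without KO replicate 1 (0.0375) and without KO replicate 2 (0.0452). The *H19* share of all counts was 0.637% to 0.746% in WT and 0.761% to 0.791% in KO.

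*H19* is also the host transcript of a microRNA, miR-675, which has been linked to repression of *Igf1r*. The 2 mature arms, from RefSeq (GRCm38.p6), are shown because they are the products of *H19* that act on other RNAs. Capitals mark the seed, bases 2 to 8, which differs between the arms.
mmu-miR-675-5p: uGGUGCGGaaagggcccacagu
mmu-miR-675-3p: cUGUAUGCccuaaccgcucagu
They lie at chr7:142577112-142577133 and chr7:142577078-142577099 on the minus strand, within an exon of *H19*. The *Mir675* gene shares 84 exon bases with *H19* on the same strand and had 0 counts in these libraries. How reads of these bases were assigned was not tested, so the 0 counts do not measure the microRNA.

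The ratio of *Igf2* to *H19* counts within a sample does not depend on the scaling between samples. Its log2 was -0.68, -0.58, -0.57 and -0.47 in WT and -1.09, -0.53, -0.69 and -0.70 in KO. The groups overlapped: KO replicate 2 lay within the WT range and KO replicate 1 was far below it. The means were -0.57 ± 0.085 and -0.75 ± 0.24 (SD, n = 4 each), a difference of -0.18 that became -0.064 without KO replicate 1. Both genes together took 1.10% to 1.22% of the counts in WT and 1.16% to 1.29% in KO.

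**Figure D2:**
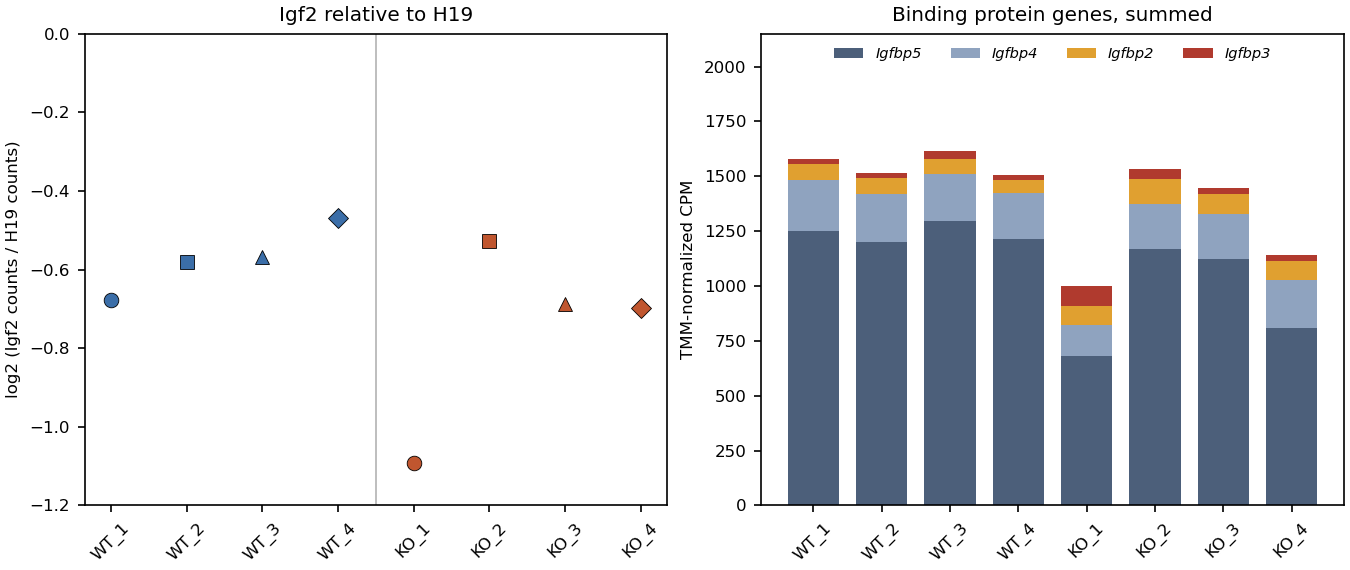
The left plot gives the log2 ratio of *Igf2* to *H19* counts in each sample, and the right plot stacks the TMM-normalized CPM of the 4 binding protein genes in each sample. KO replicate 1 had the lowest ratio (-1.09) and the lowest binding protein sum (998 CPM), and *Igfbp5* made up 68.3% to 80.5% of the sum in all 8 samples.

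The genes whose levels over the 8 samples were most like those of each of this pair are given as a description. For *Igf2* they were *Srf* (Pearson r = 0.980), *Rgp1* (0.977), *Ralgapb* (0.976), *Mydgf* (0.974) and *Abca4* (0.974). For *H19* they were *Znfx1* (0.982), *Ogfod2* (0.978), *Ctsd* (0.974), *Pck2* (0.973) and *Vasn* (0.972). The lists shared no gene. The 8 points of each correlation share the genotype difference and the distance of KO replicate 1 from the other samples.

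*Igf1r* (chr7:67952827-68233668, plus strand) encodes the receptor kinase that binds both ligands. It had 152, 161, 158 and 147 CPM in WT and 198, 172, 157 and 158 CPM in KO. KO replicates 1 and 2 were above all WT samples and the other KO samples lay within the WT range. The log2 fold change was 0.15 ± 0.079 (95% interval -0.026 to 0.33, adjusted p = 0.271, edgeR), and 0.074 without KO replicate 1.

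*Igf2r* (chr17:12682406-12769664, minus strand) encodes the receptor that carries IGF2 and lysosomal enzymes to lysosomes. Its level was 3043, 3306, 2854 and 2663 CPM in WT and 3056, 2784, 2530.0 and 2550.3 CPM in KO. KO replicates 3 and 4 were below all WT samples and the others were within the WT range. The log2 fold change was -0.12 ± 0.083 (95% interval -0.30 to 0.064, adjusted p = 0.408, edgeR), and -0.064 without WT replicate 2. The antisense RNA *Airn*, which silences the paternal *Igf2r* copy in many tissues, starts within *Igf2r*. The annotation gives no shared exon, and *Airn* differed by a log2 of -0.25 (adjusted p = 0.325, edgeR).

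The called member was *Igfbp2* (chr1:72824503-72852474, plus strand), which encodes a binding protein with a preference for IGF2. It had 70.1, 74.6, 67.7 and 63.2 CPM in WT and 83.6, 112, 93.6 and 84.4 CPM in KO. Every KO sample was above every WT sample, and KO replicate 2, the KO sample with the lowest hemoglobin share, was highest. The means were 68.9 ± 4.75 and 93.3 ± 13.0 CPM (SD, n = 4 each), a 1.35-fold rise (95% interval 1.16 to 1.58) with a log2 fold change of 0.44 ± 0.098 and an adjusted p of 0.0250 by edgeR. Without KO replicate 1 the log2 fold change was 0.49 and the adjusted p 0.00595. The call was lost without KO replicate 3 (adjusted p = 0.0564), WT replicate 1 (0.0724), WT replicate 3 (0.0772) or WT replicate 4 (0.0841), with log2 fold changes of 0.35 to 0.49 over all samples left out in turn. It held under all 8 other ways of processing the counts.

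*Igfbp5* (chr1:72857932-72874884, minus strand) encodes a binding protein that associates with the extracellular matrix, and it lies tail to tail with *Igfbp2*, 5457 bases away. It was the most abundant binding protein gene, at 1249.6, 1200.5, 1296 and 1214 CPM in WT and 682, 1169, 1121 and 807 CPM in KO. Every KO sample was below every WT sample, KO replicates 1 and 4 by far and KO replicates 2 and 3 only slightly. The means were 1240.0 ± 43.0 and 945 ± 238 CPM (SD, n = 4 each), and the log2 fold change was -0.39 ± 0.15 (95% interval -0.73 to -0.054). The unadjusted p was 0.0271 and the adjusted p 0.143 by edgeR, so it was not called, and without KO replicate 1 the log2 fold change was -0.26 (adjusted p = 0.113).

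The 250 bases before the first of 2 annotated starts of *Igfbp2*, the called member, and before the start of its neighbour *Igfbp5* are shown. They were taken from RefSeq (GRCm38.p6) and are written along the strand of each gene, with capitals for the GC box GGGCGG, searched on both strands.
Igfbp2 (chr1:72824230-72824479, plus strand): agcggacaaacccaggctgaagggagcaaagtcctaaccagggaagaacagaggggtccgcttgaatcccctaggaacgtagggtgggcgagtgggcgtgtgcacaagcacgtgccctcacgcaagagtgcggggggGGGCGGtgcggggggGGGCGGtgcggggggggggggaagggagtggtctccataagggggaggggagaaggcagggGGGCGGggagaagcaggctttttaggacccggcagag
Igfbp5 (chr1:72874866-72875115, minus strand): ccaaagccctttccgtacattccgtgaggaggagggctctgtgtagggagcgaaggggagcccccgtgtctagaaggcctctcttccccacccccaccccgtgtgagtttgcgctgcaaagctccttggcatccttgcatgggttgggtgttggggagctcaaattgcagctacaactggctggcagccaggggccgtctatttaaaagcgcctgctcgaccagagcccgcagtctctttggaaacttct
The *Igfbp2* stretch held 3 GC boxes and 14 CG dinucleotides, the stretch before the other *Igfbp2* start (chr1:72825137-72825386) held 0 GC boxes and 11 CG dinucleotides, and the *Igfbp5* stretch held 0 GC boxes and 10 CG dinucleotides, where the median over all promoters was 6 CG dinucleotides. A GC box was in 6 of the 13 promoter windows of 9 members (*Igf2*, *Igf1r*, *Igf2r*, *Igfbp2* and *Irs1*) and in 32.7% of 32851 promoters of the same length. The TATA box TATAAA, searched on both strands, was in 1 of the 13 windows, that of *Igfbp4*, and in 12.4% of all promoters. These matches describe the letters only.

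*Igfbp3* (chr11:7206086-7213923, minus strand) encodes the main IGF carrier of adult serum. Its level was 23.8, 24.0, 39.0 and 23.0 CPM in WT and 90.2, 48.7, 25.0 and 29.8 CPM in KO. The groups overlapped, since WT replicate 3 was above KO replicates 3 and 4, and KO replicate 1 was by far the highest. *Igfbp3* had the largest fold change of the members and the widest interval, with a log2 fold change of 0.82 ± 0.37 (95% interval -0.0071 to 1.65, adjusted p = 0.204, edgeR). Without KO replicate 1 it was 0.34 (adjusted p = 0.362).

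*Igfbp4* (chr11:99041244-99054392, plus strand) encodes a binding protein that mostly inhibits IGF action and is cleaved by the protease PAPP-A. It had 236, 218, 214 and 208 CPM in WT and 142, 206, 205 and 222 CPM in KO. KO replicate 4 lay within the WT range, KO replicates 2 and 3 just below it and KO replicate 1 far below. The log2 fold change was -0.18 ± 0.12 (95% interval -0.45 to 0.092, adjusted p = 0.40, edgeR), and -0.055 without KO replicate 1.

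Summed over the 4 binding protein genes, the level was 1508 to 1618 CPM in WT (mean 1556 ± 52.0, SD, n = 4) and 998, 1535, 1445 and 1143 CPM in KO (mean 1280 ± 252). KO replicate 2 lay within the WT range. The CPM are not divided by length here, so each share is of read counts and is compared only between samples. *Igfbp2* took 4.19% to 4.91% of the sum in WT and 6.48% to 8.38% in KO, without overlap, and *Igfbp5* took 79.1% to 80.5% in WT and 68.3% to 77.6% in KO, also without overlap. *Igfbp3* took 1.5% to 2.41% in WT and 1.73% to 9.04% in KO. These sums follow *Igfbp5* mainly and were not tested.

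*Irs1* (chr1:82233101-82291416, minus strand) encodes a docking protein that the activated IGF1 receptor phosphorylates. Its level was 41.5, 45.6, 44.6 and 44.1 CPM in WT and 64.8, 60.5, 42.3 and 36.8 CPM in KO. The KO samples spread to both sides of the narrow WT range, and the log2 fold change was 0.22 ± 0.16 (95% interval -0.14 to 0.58, adjusted p = 0.444, edgeR). It was 0.085, 0.13 and 0.34 without KO replicates 1, 2 and 4. Its exons overlap 2822 bases of *Gm9747* on the opposite strand, which had 2906 counts in all, and whether the counting used strand is not given in the sources used here, so reads of the pair may have been exchanged.

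**Figure D3:**
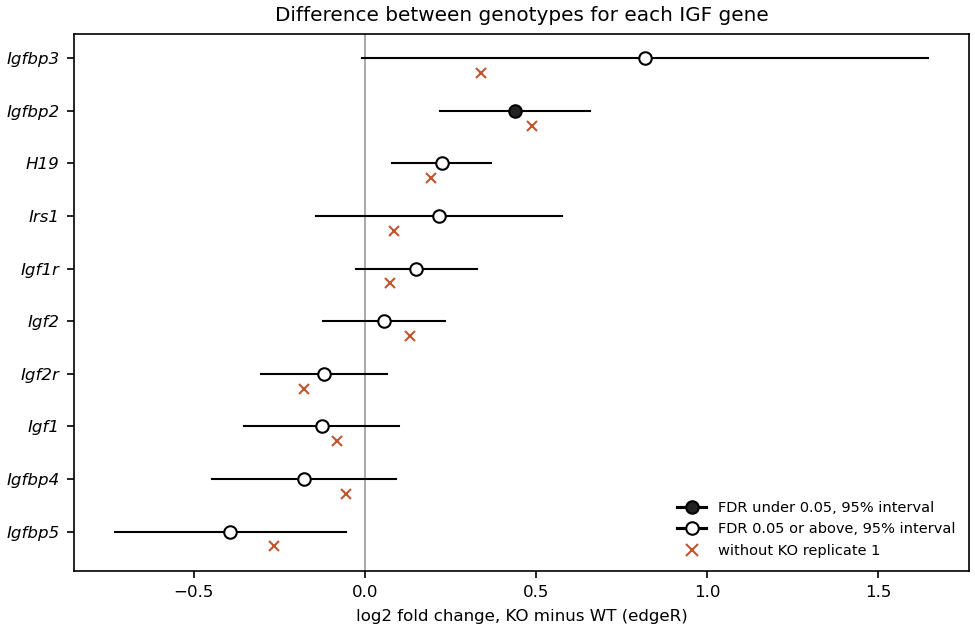
Log2 fold change (KO minus WT, edgeR) of the 10 IGF genes with 95% intervals; crosses give the value without KO replicate 1. The interval of *Igfbp2* (filled, called) runs from 0.22 to 0.66, and the crosses lie nearer to 0 than the circles for all but *Igf2*, *Igf2r* and *Igfbp2*.

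The SD of log2 CPM was larger in KO than in WT for 7 of the 10 members (70%) and for 74% of all genes tested. Without KO replicate 1 these shares were 60% and 52.6%. Beside the members, the summed hypoxia markers were 4253 to 5002 CPM in WT and 4874 to 6750.0 in KO, with 1 of 10 called (*Slc2a1*, a glucose transporter gene, higher). All 10 had a positive log2 fold change (median 0.72), with 5 at an unadjusted p under 0.05 by edgeR. The epicardial markers summed to 204 to 268 CPM in WT and 304 to 507 in KO, with 2 of 9 called (*Wt1* and *Tbx18*, higher). Of this sum, *Krt19*, not called, took 59.5 to 86.6 CPM in WT and 84.0 to 289 in KO. The endocardial and endothelial markers summed to 942 to 1026 and 819 to 948 CPM, with 1 of 10 called (*Tek*, lower). Markers of outflow, pharyngeal and neural crest mesenchyme summed to 128 to 139 CPM in WT and 81.9 to 103 in KO, with 2 of 6 called lower, and those of proliferation to 2365 to 2422 and 2538 to 3192 CPM, with 4 of 10 called higher. The liver and visceral endoderm markers, from tissues rich in *Igf2* and *Igfbp* transcripts, summed to 2.16 to 5.10 CPM in WT and 4.17 to 11.4 in KO. Of these 10, the mean was higher in KO for *Afp*, *Alb*, *Apoa1* and *Trf* and lower for the other 6, and 0 of the 2 tested were called by edgeR, DESeq2 or limma-voom, with 1 at an unadjusted p under 0.05. The part of these markers in the levels of *Igfbp2*, *H19* and the other members was not tested.

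Among 44 other genes of the IGF pathway, 36 were tested and 3 (8.33%) were called, close to the 8.62% of all genes, with a median log2 fold change of -0.034. Over the fits with a sample left out, that median ran from -0.095 without KO replicate 1 to -0.014 without WT replicate 2. *Irs2*, the second IRS docking protein gene, was 44.7 to 49.1 CPM in WT and 60.9 to 104 in KO and rose by a log2 of 0.68 ± 0.15 (adjusted p = 0.0211, edgeR). The call of *Irs2* was lost when any of the 4 WT samples was left out and with a Y-linked covariate, where the adjusted p was 0.0747. *Grb14*, whose product binds insulin and IGF receptors and inhibits their signal, fell from 57.4 ± 0.938 to 50.1 ± 1.39 CPM (log2 fold change -0.20 ± 0.050, adjusted p = 0.0382), but was called in only 1 of 8 fits with a sample left out and lost its call with a filter of 1 count in all (adjusted p = 0.135), with a replicate block (0.124) and with a Y-linked covariate (0.0791). *Igf2bp3*, encoding a protein that binds *Igf2* mRNA, fell from 159 ± 4.37 to 118 ± 10.2 CPM (log2 fold change -0.43 ± 0.068, adjusted p = 0.00524, edgeR) and was called under all 8 other ways of processing and in all 8 fits with a sample left out.

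The other roles held no called gene. Both insulin genes had 0 counts and *Insr*, the insulin receptor gene, was not called (log2 fold change 0.12, adjusted p = 0.697, edgeR). Of 2 further binding protein genes tested, 0 were called, as were 0 of 5 genes for proteases that cleave binding proteins and their inhibitors. By edgeR, 1 of the 2 and 2 of the 5 had an unadjusted p under 0.05. Of the 5, *Stc2* had the largest fold change (log2 1.45 ± 0.47, adjusted p = 0.0887, edgeR), with a log2 of 0.75 without KO replicate 1 (adjusted p = 0.0608). Of 18 PI3K and AKT signalling genes, 0 were called, with 3 at an unadjusted p under 0.05, 2 called by DESeq2 and 0 by limma-voom. Without KO replicate 1, where 2523 of all 14630 genes tested were called, 8 of these IGF genes were called: the same 3, and *Pik3cb*, *Pik3r2*, *Akt2*, *Rictor* and *Foxo3* of the PI3K and AKT genes.

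Of 26 other imprinted genes, 25 were tested and 1 (4%) was called, beside 8.62% of all genes, with a median log2 fold change of -0.081. With a sample left out in turn, this median ran from -0.10 without KO replicate 2 to -0.00014 without WT replicate 4. *Mest*, an imprinted gene of mesoderm expressed from the paternal copy, was 2683 to 3160.1 CPM in WT and 1977 to 2254 in KO, without overlap. It fell by a log2 of 0.49 ± 0.069 (adjusted p = 0.00340, edgeR) and was called in the same 16 fits. In the fit without KO replicate 1, which called 2523 of 14630 genes, 6 of these genes were called, *Mest* among them.

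Of 13 neighbours of *Igf2* and *H19* on chromosome 7, 9 were tested and 2 (22.2%) were called, both higher, where 5.11% of all genes were called higher. With so few genes the share is a description only, and the median log2 fold change was 0.23. *Tspan32*, a tetraspanin gene expressed in blood cells, was 6.57 to 8.09 CPM in WT and rose to between 10.2 and 31.5 CPM in KO (log2 fold change 1.53 ± 0.29, adjusted p = 0.0118, edgeR). *Lsp1*, a gene expressed in leukocytes, was 35.0 to 40.6 CPM in WT. It rose to between 43.3 and 58.9 CPM in KO (log2 fold change 0.39 ± 0.097, adjusted p = 0.0354, edgeR), and was called in 3 of 8 fits with a sample left out. Its adjusted p was 0.106 with a replicate block and 0.0568 with a Y-linked covariate. There were 4 called neighbours in the fit without KO replicate 1, beside the 2523 of 14630 genes called there. *Ctsd*, a neighbour whose pattern was among the most like *H19*, was 257 CPM in WT and 288 in KO and was not called (adjusted p = 0.122, edgeR). Beside these neighbours, the erythroid markers summed to 6689 to 8089 CPM in WT and 19822 to 68683 in KO, and the macrophage and leukocyte markers to 17.9 to 24.7 and 19.4 to 27.5 CPM, with 1 of 3 tested called (*Csf1r*, higher). Most of the latter sum was *Lyz2*, at means of 15.2 CPM in WT and 12.3 in KO, and *Ptprc* was at most at 1.19 CPM. The part of blood cells in these levels was not tested.

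**Figure D4:**
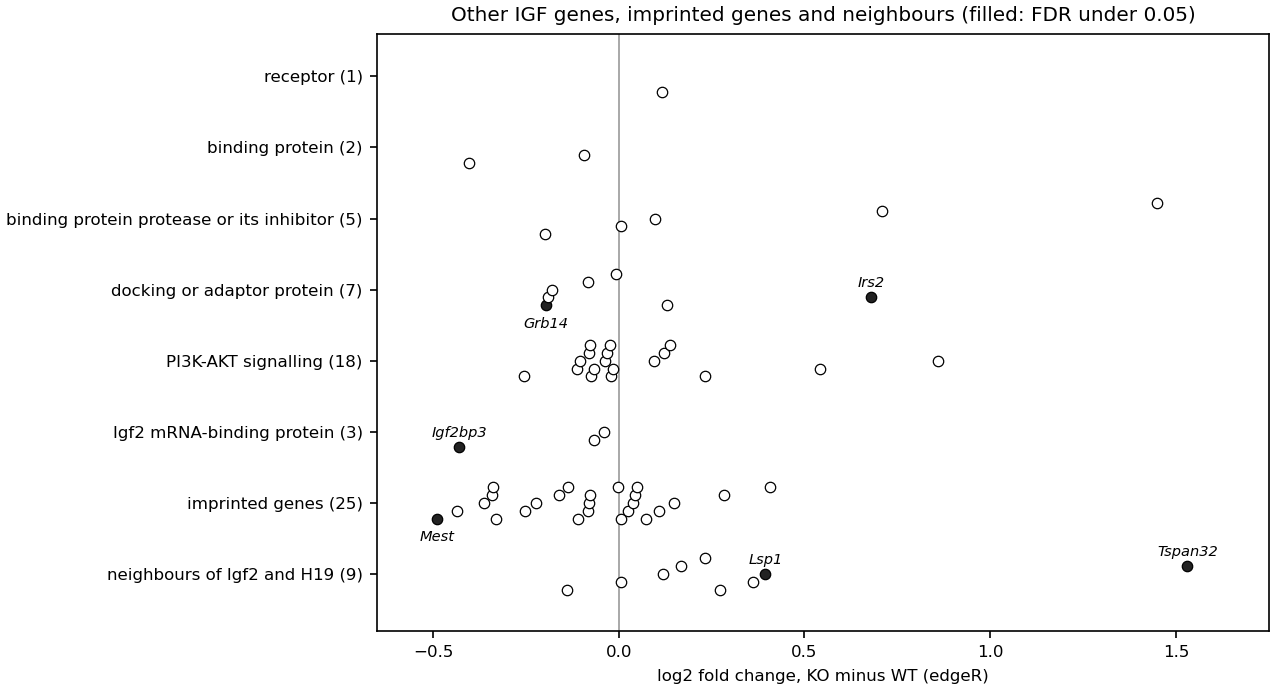
Log2 fold change (KO minus WT, edgeR) of the other IGF pathway genes by role, of other imprinted genes and of the neighbours of *Igf2* and *H19*, with the number tested in brackets and called genes filled and named. The called genes run from *Mest* at -0.49 to *Tspan32* at 1.53.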

How the data were processed

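The authors deposited expected counts per gene, which the submitters' processing notes credit to cutadapt and RSEM 1.3.1 on GRCm38. The aligner and the use of strand are not given in the sources used here. Of the 80 member values, 56 were whole numbers, and all counts were rounded. Symbols were matched for 53274 of 53465 genes. KO and WT (4 samples each, no sample left out) were compared with edgeR 4.0.16 in R 4.3.3 (TMM normalization, filterByExpr, quasi-likelihood test, Benjamini-Hochberg over 14451 genes, threshold 0.05). SEs are the log2 fold change over the square root of F, and 95% intervals use the fit's degrees of freedom. TMM-normalized CPM are means ± SD over samples. Exon lengths and coordinates came from GENCODE M21 and promoters and microRNAs from RefSeq, where 9 of the 10 members matched. Samples of a group differed by more than sampling noise: the lowest chi-square per degree of freedom between them was 3.59. The counts of calls and the fold changes of the members and other called genes were recomputed with limma-voom (limma 3.58.1), DESeq2 1.42.0, upper-quartile scaling, a looser and a stricter filter, without hemoglobin and mitochondrial genes, with a replicate block, with a Y-linked covariate, and with each sample left out. The script was tested on simulated data. The text names all members, the called genes of the other lists and, for *Igf2* and *H19*, the 5 genes with the highest r of log2 CPM (prior count 2). Marker genes, *Ctsd*, *Insr*, *Stc2* and the genes called only without KO replicate 1 were named after their values were seen. The members and lists were chosen with earlier results of these data known.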

Additional observations from a re-analysis of the deposited data

Results flagged for a closer look

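For *Igfbp3* in the WT group, replicate 3 (39.0 CPM) stood apart from the other samples (23.0 to 24.0 CPM): its gap to the nearest was 0.94 of the whole range, above Dixon's critical value for 4 samples. It was the only one of 24 groups of values past that limit, and chance alone puts about 1 in 20 past it.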

How the results depend on the processing

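None of the 10 members and 6 other called genes changed direction. Of the members, *Igfbp2* was called in all 8 other ways of processing the counts and 4 of 8 fits with a sample left out, and *H19* in 2 of each. DESeq2 called 2 members, 5 other IGF genes and 3 imprinted genes, and leaving out the hemoglobin and mitochondrial genes gave 2 members. DESeq2, that exclusion and both other filters on low counts gave 3 neighbours. With a replicate block, 616 genes were called (398 higher, 218 lower) and 1 neighbour. With a Y-linked covariate, 604 genes were called (391 higher, 213 lower), 1 other IGF gene and 2 imprinted genes. No likeness between KO and WT samples of the same replicate number was seen. Same-number correlations ran from -0.0911 to 0.0187, with 0 of 4 pairs over 0.1 and 0 samples closest to their own number. Whether litters or batches were shared cannot be told from 4 pairs. With a sample left out in turn, 509 to 2523 genes, 0 to 2 members, 1 to 8 other IGF genes, 1 to 6 imprinted genes and 1 to 4 neighbours were called. The 2523 genes were called without KO replicate 1, 1386 without KO replicate 2, 784 and 652 without KO replicates 3 and 4, and 509, 700, 592 and 569 without WT replicates 1 to 4. The fits with 0 members called had 2 to 5 at an unadjusted p under 0.05. The difference in the log2 *Igf2* to *H19* ratio ran from -0.25 to -0.064, and that in the log2 of the binding protein sum from -0.40 to -0.19. The causes were not tested. *Igf1*, with the lowest total count of the members, had 249 to 380 counts per sample.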
